A study of Homo sapiens with 4 samples.

Results

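The genes described here are 43 interferon-stimulated genes (ISGs), chosen by gene name from the 58735 genes of the deposited tables. RNA was sequenced from U251 and U87, established human glioblastoma lines kept in culture, each as Control cells and as cells given brusatol (Bru), a compound from a Chinese medicinal herb, at the IC50 for 48 h. There was 1 library for each of the 4 conditions (U251 Control, U251 Bru, U87 Control and U87 Bru), so no replicate spread can be given and every difference below is a difference between libraries. The labels call the Control cells only control, and no interferon, virus or genetic change is named for any group, so each line was also a model of the cancer cell alone, without immune cells or vessels. All 43 genes were matched by name, 37 of them had a mean of at least 1 FPKM (fragments per kilobase of gene length, scaled to library size) over the 4 libraries, and 42, 42, 41 and 39 of them had more than 3 reads in U251 Control, U251 Bru, U87 Control and U87 Bru.

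Interferons are secreted proteins with which a cell that senses viral or misplaced nucleic acid warns itself and its neighbours. Type I interferon binds its receptor, the kinases JAK1 and TYK2 are switched on, and a complex that holds STAT2 and IRF9 binds a DNA motif, the interferon-stimulated response element (ISRE), in front of ISGs. Their products sense foreign RNA, cut or edit it, stop its translation, block viruses at membranes or tag proteins with the ubiquitin-like protein ISG15, and tumour cells can keep some of these genes active without infection.

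The recovered reads on genes numbered between 17083896 and 21453561 per library, and mitochondrial genes took between 2.43% and 4.06% of them. Of the glioblastoma line markers, VIM stood between 606 and 701 FPKM and CD44 between 94.5 and 125 FPKM in the 4 libraries. SOX2 stood at 129 and 91.2 FPKM in U251 and at 0 and 0.0457 FPKM in U87. NES stood at 125 and 50.6 FPKM in U251 and at 1.46 and 0.569 FPKM in U87. Of these neural stem cell markers, SOX2 was thus at or near 0 in U87, and NES was lower in U87 than in U251. GFAP, an astrocyte protein, was at most 2.42 FPKM and OLIG2 at most 1.05 FPKM in any library. The 8 leukocyte markers summed to between 0.353 and 1.13 FPKM per library, none of them passed the minimum mean of 1 FPKM, and CD3E and AIF1 had no reads. Of the endothelium markers 0 of 3 passed it, and of the neuron markers 2 of 3.

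In U251, Bru-treated cells held less RNA of most ISGs, and 5 of them fell beyond 2-fold: the membrane restriction factors IFITM1 and IFITM2, the double-stranded RNA enzymes OAS1 and OAS3, and DHX58, a regulator of RNA sensing. None rose beyond 2-fold. In U87, the changes were mostly small, and only BST2 and IFITM1 fell beyond 2-fold, both from 8 reads or fewer in Control to 0. The genes for the IFIT proteins, ISG15 and the transcription factor IRF1 were not among those that fell in either line. In bulk RNA, a smaller share of cells expressing a gene and less RNA per cell cannot be told apart.

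A change is the log2 ratio of Bru to Control in FPKM + 0.1, a gene counts as fallen or risen when this ratio lies beyond 1 in size, and counts cover genes with a mean of at least 1 FPKM. In U251, 30 of the 37 ISGs had a ratio below 0 and 7 above 0, and 81.1% below 0 compares with 52.1% of the 12949 genes that passed the same minimum. Lower ratios thus outnumbered higher ones by more among the ISGs than among all genes of this line. The count of ISGs that fell was 5 of 37, or 13.5%, beside 5.44% of all genes, while 0 ISGs rose, beside 3.36% of all genes. The median ratio was -0.41 for the ISGs and -0.03 for all genes. In U87, 24 ISGs had a ratio below 0 and 13 above 0, and 64.9% below 0 compares with 56.7% of all genes. There, 2 ISGs fell, or 5.41% beside 1.41% of all genes, 0 rose, beside 1.92% of all genes, and the median ratio was -0.09 for the ISGs and -0.04 for all genes. The U87 median thus lay closer to that of all genes than the U251 median did.

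Both fallen ISGs in U87 passed the minimum only through their levels in U251, and DHX58, fallen in U251, passed only through U87, so these counts cannot be read as support. With the minimum taken over the libraries compared, a choice made after seeing the data, 4 of 35 ISGs fell in U251 (11.4%, beside 5.77% of all genes) with a median of -0.29, and 0 of 32 fell in U87 (beside 1.34%), with a median of -0.04 for the ISGs and -0.04 for all genes. No fall beyond 2-fold in U87 was thus left among ISGs expressed there. With the minimum over all 4 libraries, and with BST2 and IFITM1 set to the bound that 3 reads allow, 1 of them stayed beyond 2-fold and the U87 median stayed at -0.09. Beside each ratio stands an exact 95% Clopper-Pearson range, called its interval, computed from the reads of the libraries compared without the added 0.1 and covering counting error only. By these intervals, the U251 ratio lay below 0 for 23 ISGs, above 0 for 7 and could not be separated from 0 for 7. The U87 ratio lay below 0 for 10, above 0 for 5 and could not be separated from 0 for 22. Interval counts were not made over all genes. Summed over all 43 ISGs, FPKM was 757 for Control and 507 for Bru cells of U251, and 291 for Control and 273 for Bru cells of U87. BST2 alone held 42.7% of the U251 Control sum and 33.1% of the U251 Bru sum, and without it the sums were 434, 339, 291 and 273 FPKM.

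**Figure D1:**
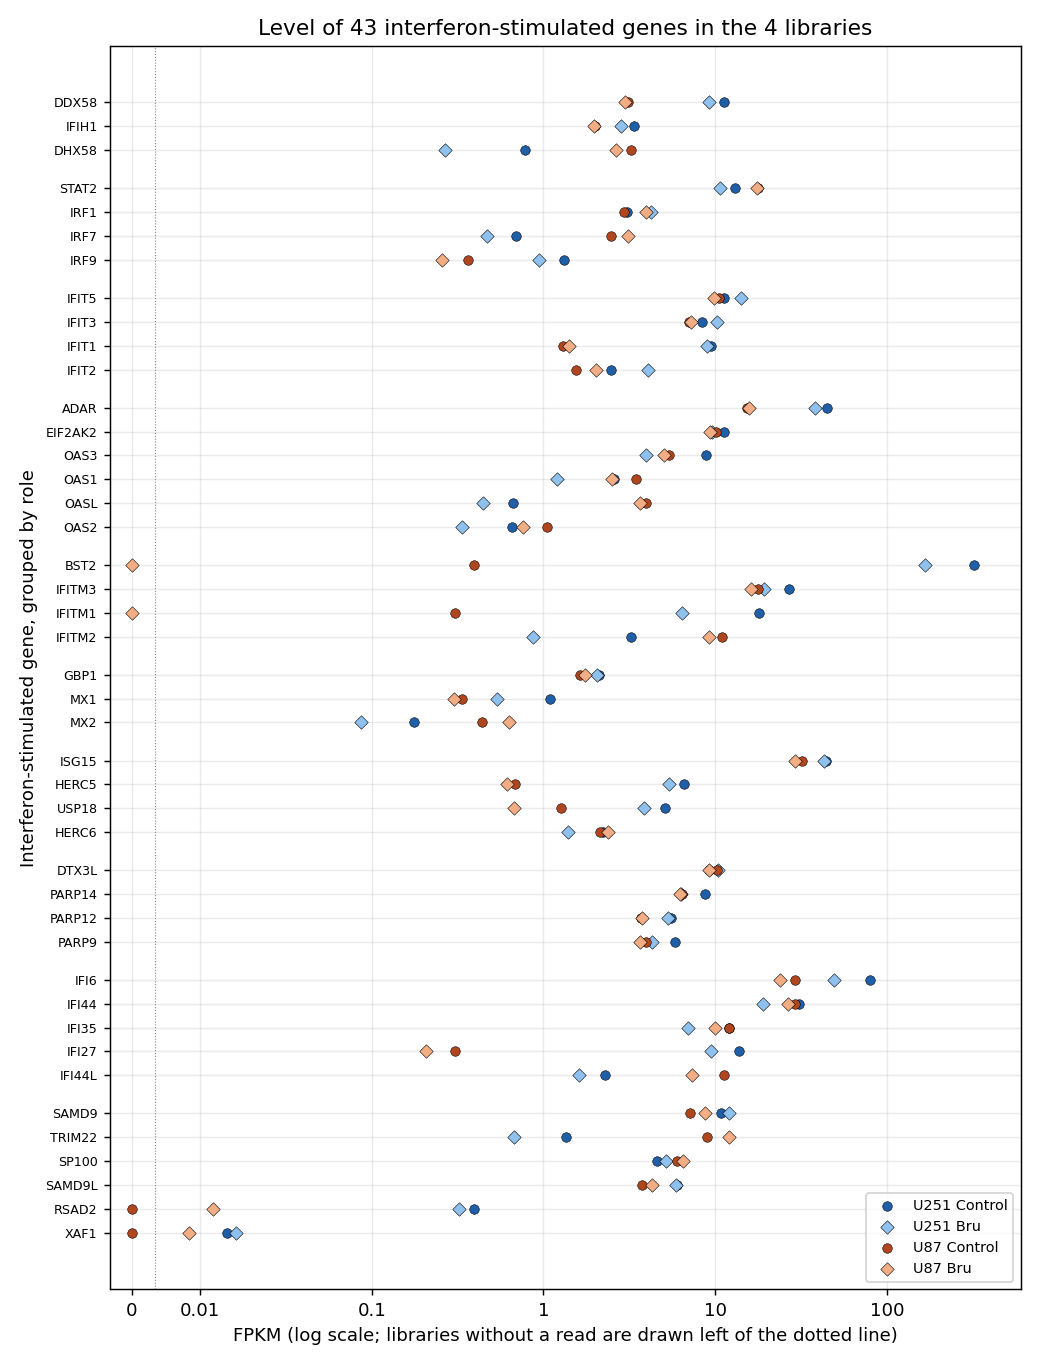
FPKM of the 43 interferon-stimulated genes (log scale, horizontal axis) in the 4 libraries, 1 point per library, grouped by role, with libraries without a read drawn left of the dotted line. BST2 stands at 323 and 168 FPKM in U251 and at 0.396 and 0 FPKM in U87, the widest gap between the lines, while ISG15 lies between 29.1 and 44.3 FPKM in every library.

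**Figure D2:**
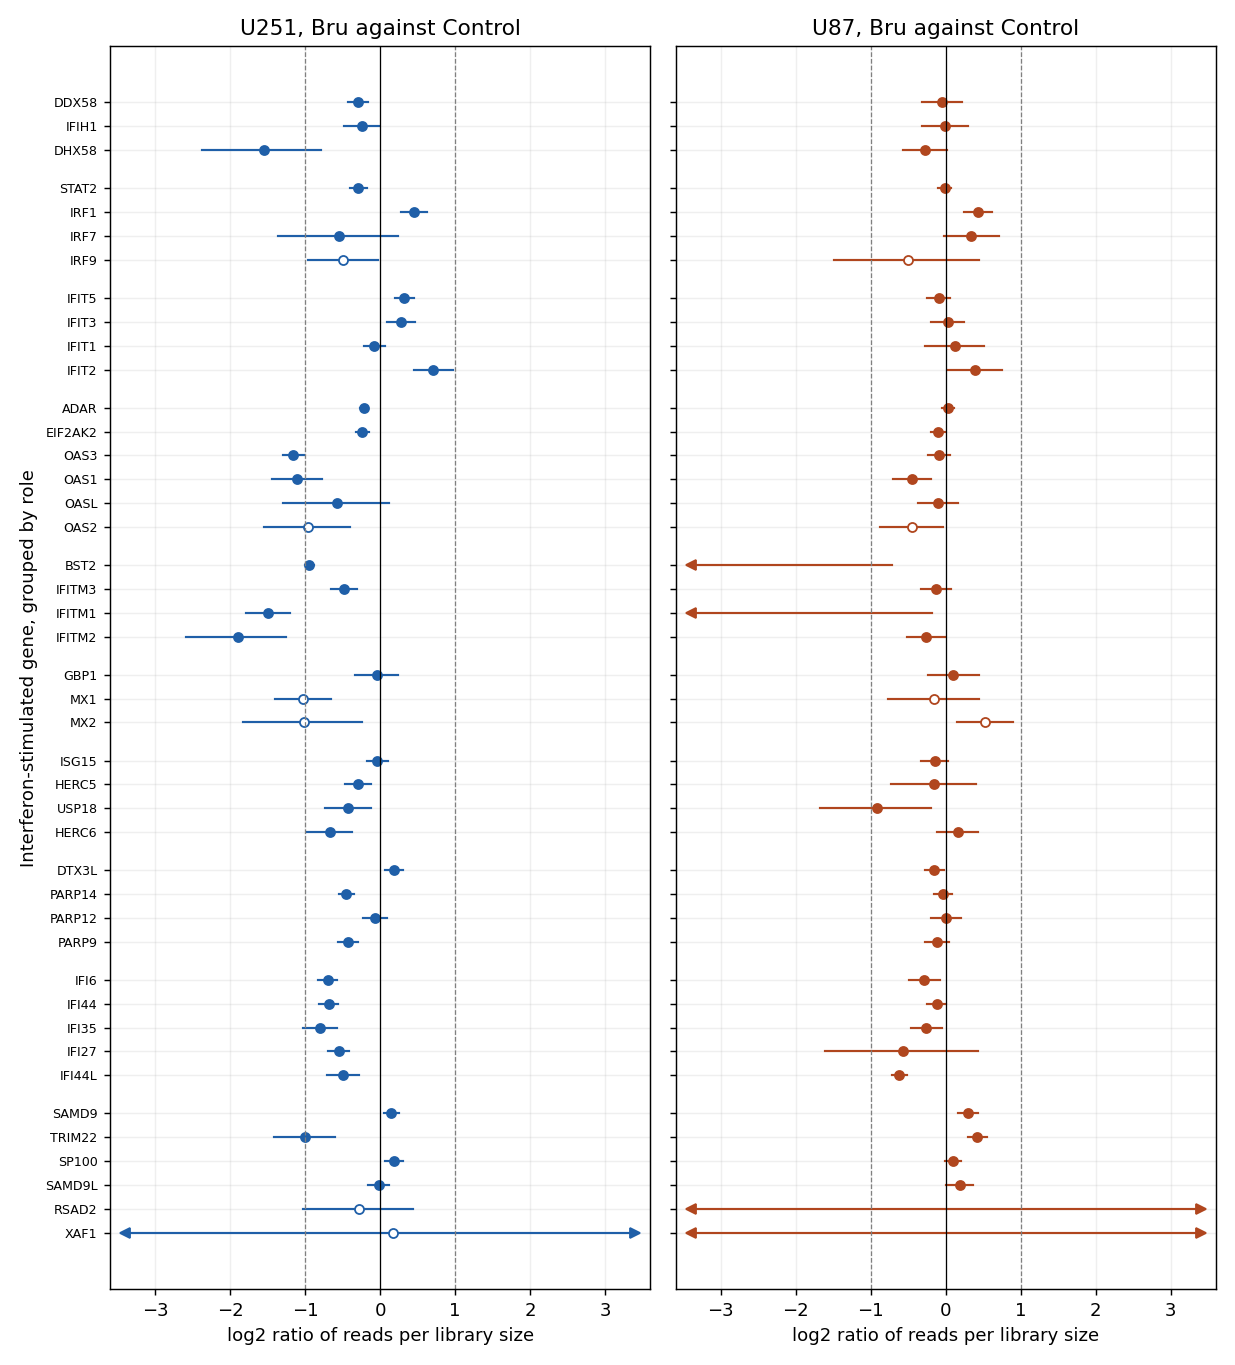
Log2 ratio of Bru to Control in reads per library size (horizontal axis) for each of the 43 genes in U251 (left) and U87 (right); bars are exact 95% counting intervals, arrows run on past the axis, open points are genes with a mean under 1 FPKM, and dashed lines mark a 2-fold change. Most U251 points lie left of 0 (30 of the 37 genes over the minimum), and the ratios of FPKM + 0.1 lie within 0.5 of 0 for 24 of 37 genes in U251 and 33 of 37 in U87.

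Promoter sequence shows how far these genes share the element through which the pathway is known to act. The RefSeq table of build GRCh38.p14, with 250 bases before and 50 bases after each start, held 45 promoters of 34 of the 43 ISGs. TRIM22, USP18, OASL, IFITM2, OAS2, MX2, IRF7, IFIT2 and DHX58 were not matched. The ISRE core was searched as GAAANNGAAA on both strands and occurred in 27 of 45 ISG promoters (60.0%) and in 1255 of all 35116 promoters (3.57%). The core of the GAS element, known from the type II interferon response, was searched as TTCNNNGAA, whose reverse complement reads the same, and occurred in 10 of 45 (22.2%) and in 7.66% of all promoters. The first 3 stretches below come from the fallen ISGs that hold an ISRE core and were matched, BST2, IFITM1 and OAS3. BST2 counted as fallen only in U87, on 8 reads in Control and 0 in Bru, and its U251 ratio of -0.95 lay inside the 2-fold limit. The stretches of ISG15 and IFIT5, chosen after their values were seen, come from ISGs that did not fall. Each is written 5′ to 3′ on the gene's strand with the ISRE core in capitals, where TTTC marks the core on the other strand.
BST2, chr19:17405725-17405780, minus strand: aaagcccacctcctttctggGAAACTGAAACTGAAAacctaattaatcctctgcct
IFITM1, chr11:313980-314029, plus strand: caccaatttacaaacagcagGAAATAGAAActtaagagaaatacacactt
OAS3, chr12:112938442-112938473, plus strand: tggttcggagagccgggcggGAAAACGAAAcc
ISG15, chr1:1013364-1013419, plus strand: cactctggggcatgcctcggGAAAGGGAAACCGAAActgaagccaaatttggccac
IFIT5, chr10:89414503-89414567, plus strand: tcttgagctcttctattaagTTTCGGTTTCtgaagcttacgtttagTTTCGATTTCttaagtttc

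The stretches of BST2 and ISG15 each hold overlapping copies of the core, and their ratios in U251 were -0.95 and -0.04. Over the ISGs that passed the minimum and were matched, the median U251 ratio was -0.29 for the 21 with an ISRE core and -0.29 for the 9 without it, and the U87 medians were -0.11 and 0.03. The U251 medians were thus nearly equal with and without the ISRE core. For the GAS core, the medians were -0.79 with it (7 ISGs) and -0.23 without it (23) in U251, and -0.40 and -0.04 in U87. The U251 ratios of the 2 groups overlapped, from -1.48 to 0.44 with the GAS core and from -1.14 to 0.32 without it. The U87 median of -0.40 was the value of IFI27, on 23 and 15 reads, with an interval from -1.61 to 0.44. IFI27, BST2 and IFITM1, which hold both cores, passed the minimum only through U251, so no U87 contrast by core can be drawn. All these medians are descriptions of few genes.

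Among the ISGs over the minimum, the membrane restriction factors IFITM2 and IFITM1 had the lowest U251 ratios. The U251 ratios of BST2 and IFITM3, of the same group, were higher than those of DHX58, OAS3 and OAS1. BST2 (tetherin, ENSG00000130303, chr19:17402939-17405648 of GRCh38), which holds budding virus particles at the cell surface, was the most abundant ISG in U251 and nearly silent in U87. Its level was 323 FPKM in U251 Control (7588 reads) and 168 FPKM in U251 Bru (3481 reads), a ratio of -0.95 with an interval from -1.004 to -0.888, just inside the 2-fold limit. In U87 it had 8 reads in Control and 0 in Bru, at least 2.57-fold lower when 0 is taken as 3 reads, with an upper limit of -0.72 for the log2 ratio. The U251 loss thus rests on deep coverage and the U87 loss on 8 reads.

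IFITM1, IFITM2 and IFITM3 encode small membrane proteins that hinder the fusion of virus and cell, and they lie side by side on chromosome 11. IFITM1 (ENSG00000185885, chr11:313506-315272) stood at 18.0 and 6.39 FPKM in U251 Control and Bru (407 and 128 reads) and fell by 1.48 on the log2 scale, with an interval from -1.79 to -1.20. In U87 it had 6 reads in Control and 0 in Bru, at least 1.93-fold lower when 0 is taken as 3 reads, and the counting limit of the log2 ratio reached up to -0.18. IFITM2 (ENSG00000185201, chr11:307631-315272) stood at 3.24 and 0.874 FPKM in U251 (105 and 25 reads) and at 11.0 and 9.16 FPKM in U87 (306 and 246 reads). It had the largest fall of the ISGs in U251, -1.78 with an interval from -2.58 to -1.25, and a U87 ratio of -0.26 with an interval from -0.51 to -0.01. The U87 ratio of IFITM2 exceeded the U251 ratio by 1.52, with an interval from 0.94 to 2.37. IFITM3 was less affected, at 26.7 and 19.2 FPKM in U251 and 17.7 and 16.2 FPKM in U87, with ratios of -0.48 and -0.13.

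The IFITM genes are hard to count apart. The annotated exons of IFITM1 share 32.5% of their bases with IFITM2, and between 32.0% and 35.2% of the 50-base stretches in the exons of IFITM1, IFITM2 and IFITM3 occur in more than 1 gene. With the reads of IFITM1 and IFITM2 added up, U251 held 512 and 153 reads in Control and Bru, a ratio of -1.56 with an interval from -1.83 to -1.30. The same sum in U87 was 312 and 246 reads, a ratio of -0.29 with an interval from -0.54 to -0.04. With IFITM3 added, the sums were 1268 and 632 reads in U251, a ratio of -0.83 with an interval from -0.97 to -0.69, and 744 and 627 reads in U87, a ratio of -0.19. The U251 sum of IFITM1 and IFITM2 thus stood beyond 2-fold and the sum with IFITM3 inside it.

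The 2′-5′ oligoadenylate synthetases (OAS) sense double-stranded RNA and make the messenger that turns on RNase L, which cuts RNA. Their genes lie in a row on chromosome 12. OAS3 (ENSG00000111331, chr12:112938352-112973249) stood at 8.80 and 3.94 FPKM in U251 Control and Bru (1523 and 603 reads) and at 5.37 and 5.07 FPKM in U87 (801 and 728 reads). OAS3 fell in U251 by 1.14 on the log2 scale, with an interval from -1.30 to -1.02, and its U87 ratio of -0.08 had an interval from -0.23 to 0.06. The U87 ratio of OAS3 exceeded the U251 ratio by 1.06, with an interval from 0.87 to 1.28. OAS1 (ENSG00000089127, chr12:112906777-112933222) stood at 2.58 and 1.1998 FPKM in U251 (268 and 110 reads) and at 3.45 and 2.52 FPKM in U87 (308 and 217 reads). It fell in U251 by 1.05, with an interval from -1.44 to -0.78, and had a ratio of -0.44 in U87, with an interval from -0.71 to -0.20. OAS1 was thus lower in both lines, and more so in U251 by 0.61, with an interval from 0.24 to 1.08.

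OAS2 was under the minimum, with 86, 39, 118 and 83 reads in U251 Control, U251 Bru, U87 Control and U87 Bru. The log2 ratio of its reads was -0.96 in U251, with an interval from -1.55 to -0.40. In U87 it was -0.45, with an interval from -0.88 to -0.04. Added up, OAS1, OAS2 and OAS3 held 1877 and 752 reads in U251, a ratio of -1.14, and 1227 and 1028 reads in U87, a ratio of -0.20. OASL, a relative that binds RNA without the synthetase activity, lies elsewhere on the chromosome and had ratios of -0.49 and -0.10, with 49 and 29 reads in U251. Among the other double-stranded RNA enzymes, ADAR, which edits adenosine to inosine in RNA, was among the most abundant ISGs at 44.7 and 38.4 FPKM in U251 and 15.3 and 15.7 FPKM in U87. Its ratios were -0.22 and 0.03, and those of EIF2AK2, the kinase PKR that stops translation, were -0.23 and -0.10. Among the genes of this family over the minimum, OAS1 and OAS3 therefore fell beyond 2-fold in U251, and the more abundant ADAR and EIF2AK2 did not. Their neighbour OAS2, under the minimum, was also lower in U251.

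The cytosolic RNA sensors differed among themselves. DHX58 (LGP2, ENSG00000108771, chr17:42101404-42112733), which lacks the signalling domain of the other sensors and tunes them, stood at 0.782 and 0.267 FPKM in U251 (63 and 19 reads) and at 3.23 and 2.66 FPKM in U87 (224 and 178 reads). It fell in U251 by 1.27, with an interval from -2.37 to -0.79, and its U87 ratio of -0.27 had an interval from -0.57 to 0.01. DDX58 (RIG-I), which detects viral RNA ends, stood at 11.3 and 9.23 FPKM in U251 and 3.09 and 3.00 FPKM in U87, with ratios of -0.29 and -0.04. IFIH1 (MDA5), which detects long double-stranded RNA, had ratios of -0.24 and -0.01. The sensor that fell was thus the least abundant of the trio in U251, and it passed the minimum only through U87. With a pseudocount of 1, the U251 ratio of DHX58 was -0.49.

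The IFIT genes, a row on chromosome 10 whose products bind foreign RNA and block its translation, went another way than the IFITM and OAS genes. Their U251 ratios were 0.69 for IFIT2, 0.32 for IFIT5, 0.28 for IFIT3 and -0.08 for IFIT1, none beyond 2-fold. IFIT2 stood at 2.49 and 4.07 FPKM in U251 (214 and 309 reads), with an interval from 0.45 to 0.97, and at 1.55 and 2.03 FPKM in U87 (115 and 145 reads), with a ratio of 0.37 and an interval from 0.03 to 0.75. It had the highest U251 ratio of the 37 ISGs, and 10.3% of its exon bases are shared with AL353751.1 or LIPA. The other IFIT ratios in U87 were -0.09 for IFIT5, 0.03 for IFIT3 and 0.11 for IFIT1. Summed over IFIT1, IFIT2, IFIT3 and IFIT5, U251 held 2540 and 2621 reads, a ratio of 0.22 with an interval from 0.14 to 0.30, and U87 held 1323 and 1279 reads, a ratio of 0.01 with an interval from -0.11 to 0.12. The medians of the neighbouring genes were thus 0.30 and 0.07 in U251 and U87 for the IFIT genes, beside -1.48 and -0.26 for the IFITM genes. The IFITM median in U251 was the value of IFITM1, which shares exon bases with IFITM2. With the reads of the 3 IFITM genes added up, the ratios were -0.83 in U251 and -0.19 in U87.

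The ISG15 system tags proteins during an interferon response. ISG15 itself stood at 44.3 and 43.1 FPKM in U251 (874 and 752 reads) and at 32.2 and 29.1 FPKM in U87 (547 and 476 reads), and it was the most abundant ISG in both U87 libraries. Its ratio was -0.04 in U251, with an interval from -0.18 to 0.10, and -0.15 in U87, with an interval from -0.33 to 0.03. HERC5, the ligase that attaches ISG15, had ratios of -0.29 and -0.14, and its relative HERC6 had ratios of -0.64 and 0.15. USP18, which removes ISG15 and dampens the interferon receptor, had 229 and 151 reads in U251 and 49 and 25 in U87, with ratios of -0.41 and -0.83. In the exons of USP18, 23.4% of 50-base stretches occur in another gene, mainly its near copy USP41, so its level is uncertain.

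Of the 43 ISGs, the 5 IFI genes all had ratios below 0 in both lines, and none fell beyond 2-fold. IFI16 is not among the 43 and belongs to the wider pathway lists below. Named after its values were seen, it had a ratio of 0.37 in U251, with an interval from 0.29 to 0.46, and -0.15 in U87. IFI6, a mitochondrial protein that opposes cell death, stood at 79.5 and 49.0 FPKM in U251 and 29.05 and 23.8 FPKM in U87, with ratios of -0.70 and -0.28. IFI44 had 1310 and 719 reads in U251 and 1068 and 948 in U87, with ratios of -0.68 and -0.12. IFI35 had ratios of -0.79 and -0.26, IFI27 of -0.55 and -0.40, and IFI44L of -0.47 and -0.61. IFI44L had a lower ratio in U87 than in U251, on 2075 and 1301 reads in U87, but the difference of -0.14 had an interval from -0.36 to 0.11.

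The transcription factors that drive ISGs did not move as a group. IRF1, which is induced by type II interferon and activates ISGs, stood at 3.08 and 4.22 FPKM in U251 and at 2.94 and 3.96 FPKM in U87. Its ratios were 0.44 in U251, with an interval from 0.28 to 0.63, and 0.42 in U87, with an interval from 0.24 to 0.62, and 22.0% of its exon bases are shared with C5orf56 or AC116366.3. IRF1 was thus higher in both Bru libraries by nearly the same amount. STAT2 had ratios of -0.29 and -0.01, and IRF7, which amplifies type I interferon, had ratios of -0.46 and 0.33, on 38 and 23 reads in U251 and 117 and 143 in U87. IRF9, the DNA-binding partner of STAT2, was under the minimum, with 105, 66, 25 and 17 reads in the 4 libraries, and 48.4% of its exon bases are shared with AL136295.5.

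The PARP genes and DTX3L encode enzymes of ADP-ribosylation and a ubiquitin ligase that work in the antiviral response, and PARP9, DTX3L and PARP14 are neighbours on chromosome 3. Their U251 ratios were 0.18 for DTX3L, -0.06 for PARP12, -0.42 for PARP9 and -0.44 for PARP14, and their U87 ratios lay between -0.15 and 0.01. DTX3L stood at 9.17 and 10.4 FPKM in U251 and at 10.3 and 9.21 FPKM in U87, higher after Bru in U251 and lower in U87. Among the interferon-induced GTPases, GBP1 had ratios of -0.04 and 0.10. MX1 and MX2, which trap viral particles in cytoplasm and at the nucleus, were under the minimum, with 198, 86, 52 and 45 reads for MX1 and 48, 21, 104 and 144 reads for MX2 in U251 Control, U251 Bru, U87 Control and U87 Bru. MX2 was thus lower after Bru in U251 and higher in U87.

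TRIM22 (ENSG00000132274, chr11:5689689-5737089), a ubiquitin ligase that restricts several viruses, showed the clearest opposite directions. It stood at 1.35 and 0.672 FPKM in U251 Control and Bru (170 and 75 reads) and at 9.02 and 12.1 FPKM in U87 (981 and 1268 reads). Its ratio was -0.91 in U251, with an interval from -1.41 to -0.60, and 0.42 in U87, with an interval from 0.30 to 0.55. The remaining effectors had ratios near 0: SAMD9 and SAMD9L, which restrict translation, had 0.15 and -0.02 in U251 and 0.29 and 0.18 in U87, and SP100, a nuclear body protein, had 0.18 and 0.10. RSAD2 (viperin), whose product makes a chain-terminating nucleotide, had 40 and 29 reads in U251 and 0 and 1 in U87, and XAF1, a promoter of cell death, had 2, 2, 0 and 1 reads in U251 Control, U251 Bru and the same U87 order, so neither change was detectable in U87 at this depth.

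**Figure D3:**
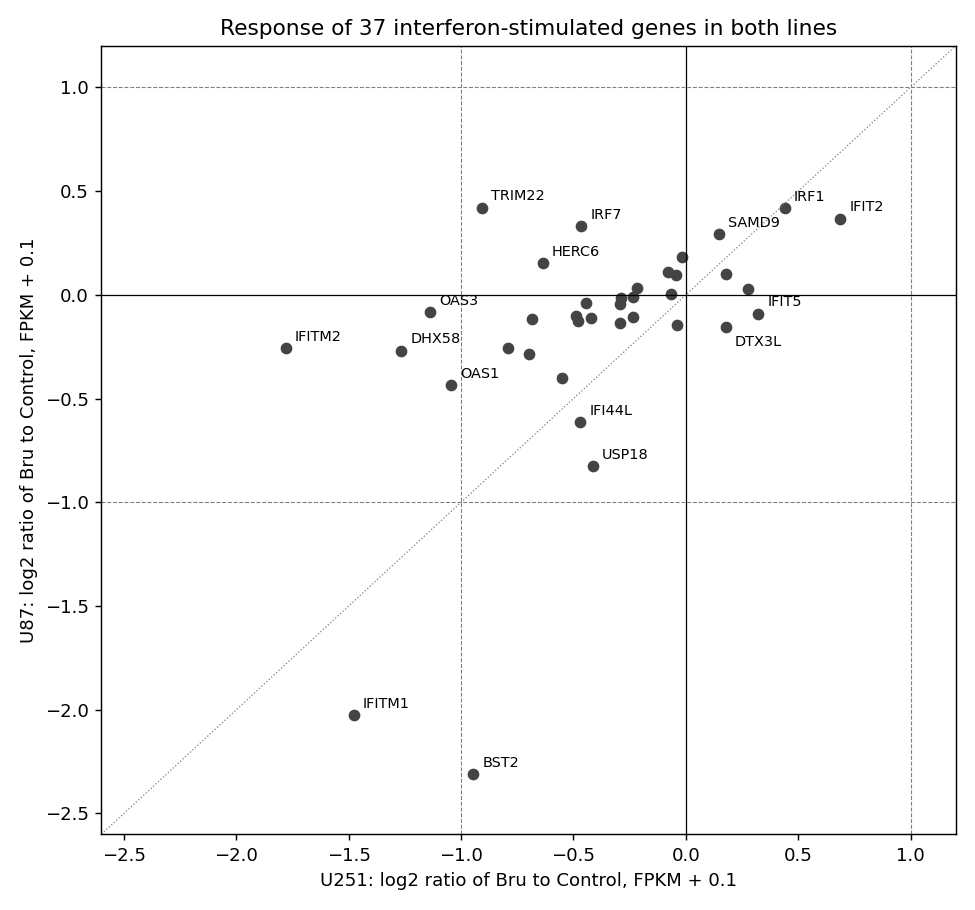
Log2 ratio of Bru to Control in FPKM + 0.1 in U251 (horizontal) and U87 (vertical) for the 37 interferon-stimulated genes over the minimum, 1 point per gene; dashed lines mark a 2-fold change and the dotted line equal ratios. IFITM2, DHX58, OAS3 and OAS1 lie left of the U251 limit and within the U87 limits, and BST2 and IFITM1, drawn from 8 and 6 reads in Control and 0 in Bru in U87, lie below the U87 limit.

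Set side by side, 22 of the 37 ISGs had ratios below 0 in both lines, 5 above 0 in both and 10 opposite in sign. The U87 ratio was the higher of the pair for 26 ISGs. The difference between the lines, U87 minus U251, lay above 0 by its exact counting interval for 16 ISGs and below 0 for 2 (IFIT5, DTX3L), and for 19 it could not be separated from 0. These intervals compare the 4 libraries, and how far the difference would vary between repeats of the experiment was not tested. None of these side-by-side counts was made over all genes, so they cannot be read as particular to the ISGs. Of all genes, 52.1% had a ratio below 0 in U251 and 56.7% in U87.

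The Control cells of the lines already differed in these genes. Between the Control libraries, 10 ISGs had more RNA in U87 and 27 more in U251, and the median ratio of U87 to U251 was -0.44, beside -0.01 for all genes. Beyond 2-fold, 6 ISGs (16.2%) were higher in U87, beside 14.5% of all genes, and 9 (24.3%) were lower in U87, beside 16.0% of all genes. The ISGs higher in U251 were BST2, IFITM1, IFI27, HERC5, IFIT1, USP18, DDX58, ADAR and IFI6, and those higher in U87 were TRIM22, OASL, IFI44L, DHX58, IFITM2 and IRF7. The share higher in U87 was thus near that of all genes. BST2, IFITM1, IFI27, HERC5 and USP18 passed the minimum mean of 1 FPKM only through U251. OASL, DHX58 and IRF7 passed it only through U87, so the shares beyond 2-fold cannot be read as support.

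The largest gap was that of BST2, 817-fold lower in FPKM in U87 Control than in U251 Control, with a log2 interval of the read ratio from -10.89 to -8.70. IFITM1 was 58.4-fold lower, with an interval from -7.32 to -4.73, and IFI27, at 13.9 and 9.43 FPKM in U251 and 0.307 and 0.208 FPKM in U87 (1205 and 23 reads in the Controls), was 45.1-fold lower. These 3 genes were thus near silent in U87. In the other direction, the log2 ratios were 2.66 for TRIM22, 2.40 for OASL and 2.25 for IFI44L. OASL stood at 0.664 and 0.445 FPKM in U251 Control and Bru and at 3.93 and 3.66 FPKM in U87, and IFI44L at 2.28 and 1.62 FPKM in U251 and at 11.2 and 7.30 FPKM in U87. The neighbours IFITM1 and IFITM2 thus differed in opposite directions between the lines, but they share exon bases, and with their reads added up the ratio was -0.50, with an interval from -0.71 to -0.29.

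**Figure D4:**
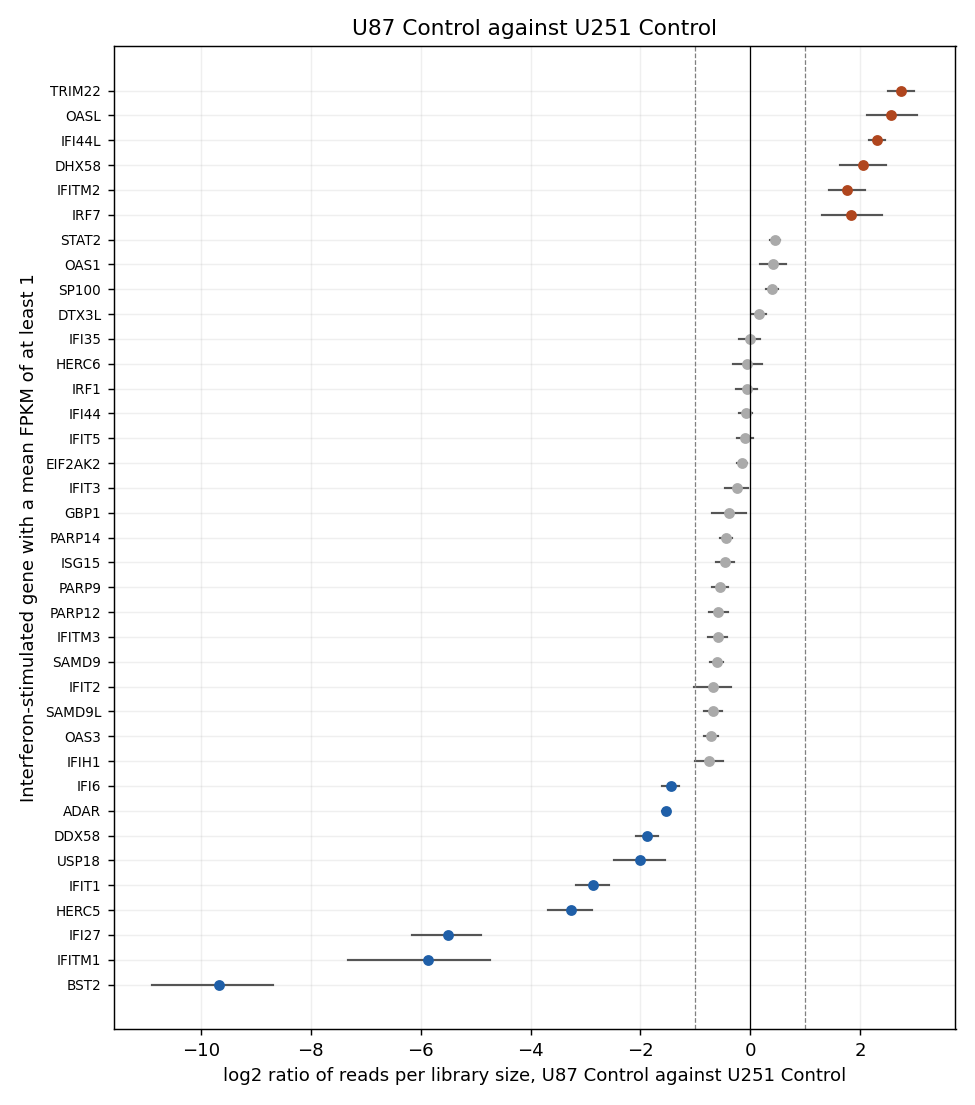
Log2 ratio of U87 Control to U251 Control in reads per library size (horizontal axis) for the 37 interferon-stimulated genes over the minimum, ordered by ratio, with exact 95% counting intervals as bars; dashed lines mark a 2-fold difference, red points are genes beyond it and higher in U87, blue points genes beyond it and higher in U251, and grey points the others. BST2, IFITM1 and IFI27 lie farthest left and TRIM22, OASL and IFI44L farthest right.

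The wider pathway was read in lists of 109 genes, 1 of which, MB21D1, was not matched. Of 21 interferon genes, 14 had no read in any library, and the other 7 had none in U87. IFNE, an interferon of epithelium, had the most reads, with 14 for Control and 30 for Bru cells of U251, and IFNB1, the first interferon most infected cells make, had 0 and 2. The log2 ratio of the IFNE reads in U251 was 1.28, with an interval from 0.32 to 2.31. So interferon RNA itself was low, and none passed the minimum. The interferon genes other than IFNE had at most 3 reads in any library, so a change of theirs was not detectable at this depth.

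Among 11 receptors, kinases and STATs, 8 passed the minimum, and the medians were -0.12 in U251 and -0.10 in U87. IFNGR2, a chain of the receptor for type II interferon, was the member of this list that fell, from 13.2 to 6.53 FPKM in U251. Its ratio was -1.01 in U251, with an interval from -1.20 to -0.84, and -0.15 in U87. Of its exon bases, 12.8% are shared, with TMEM50B holding the largest overlap. Of 14 sensors, adaptors and kinases, 13 passed the minimum and none changed beyond 2-fold in either line, with medians of 0.08 and -0.10. Of 12 negative regulators, 9 passed and none changed beyond 2-fold, with medians of 0.21 and -0.03.

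Of 50 further interferon-induced genes, 36 passed the minimum, and in U251 5 fell (beside 5.44% of all genes) and 1 rose (beside 3.36%), with a median of -0.17. In U87, 1 fell (beside 1.41% of all genes) and none rose (beside 1.92%), with a median of -0.14. APOBEC3F, a cytidine deaminase that mutates viral DNA, stood at 6.69 and 2.18 FPKM in U251, a ratio of -1.57, and at 1.33 and 1.12 FPKM in U87, a ratio of -0.23. HELZ2, a helicase and transcriptional coactivator, stood at 7.65 and 3.47 FPKM in U251, a ratio of -1.12, and had a ratio of -0.36 in U87. RARRES3, a phospholipase, was the gene that fell in both lines, from 1.95 to 0.872 FPKM in U251 and from 5.79 to 2.52 FPKM in U87, with ratios of -1.07 and -1.17. SLFN5, named after its values were seen, was the gene that rose, from 4.42 to 9.53 FPKM in U251, a ratio of 1.09, and it had a ratio of -0.12 in U87. The other fallen genes in U251, likewise named after their values were seen, were UBA7, the enzyme that activates ISG15, at -1.10, and LGALS3BP, a secreted glycoprotein, at -1.03. Under the minimum, and also named after the values were seen, APOBEC3G had 80 and 7 reads in U251 and 62 and 53 in U87. The log2 ratio of its U251 reads was -3.34, with an interval from -4.70 to -2.23. APOL3, also under the minimum, was higher after Bru in U251, with 11 and 24 reads and an interval from 0.22 to 2.48.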

How the data were processed

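Libraries of total RNA (NEB Next Ultra kit, paired-end Illumina reads; whether counting used strand is not given in the sources used here) were compared as Bru against Control within each line and as U87 Control against U251 Control. The authors deposited FPKM per gene with gene lengths in bases. The submitters' processing notes name HISAT2 2.0.5, StringTie 1.3.3b, featureCounts 1.5.0-p3, DESeq2 1.16.1 and build hg18, but the spans and lengths of all 43 genes equal those of GENCODE 29 (GRCh38), so coordinates are given as GRCh38.

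FPKM multiplied by length was a whole multiple of 1 step per library for 100% of values (tolerance 0.01 reads), which gave reads and library size. The floor was 3 reads, which for a gene of 1 kilobase is 0.143 to 0.172 FPKM. Ratios used FPKM + 0.1 and a minimum mean of 1 FPKM. With 1 library per condition no p-value was computed, and it is not known whether libraries came from separate cultures. Differences between lines carry exact conditional intervals. The calculation was tested on simulated data. Python 3.11.15, numpy 2.4.6, pandas 2.3.3, scipy 1.17.1 and matplotlib 3.10.9 were used.

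Genes given with values in all libraries were those beyond 2-fold in either line, the 5 with the highest mean FPKM, those whose ratios differ between lines by over 1, and the 3 at each end of the Control comparison, and of each pathway list at most 3 beyond 2-fold. Part of the genes this rule selects are not reported here. Other values were added to account for every gene. The genes and lists were chosen with earlier results of these data known. Alternatives were other pseudocounts, scalings, minimums and call rules.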

Additional observations from a re-analysis of the deposited data

Results flagged for a closer look

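The response to Bru had opposite directions in U251 and U87, with both exact counting intervals clear of 0, for 3 genes. The U87 log2 ratio minus the U251 ratio was 1.33 for TRIM22 (interval of the difference 1.01 to 1.86), 0.9997 for MX2 (0.67 to 2.44) and -0.33 for DTX3L (-0.51 to -0.16). The difference between lines was not tested, since each condition has 1 library. MX2 was under the minimum mean of 1 FPKM, and 10.7% of the exon bases of TRIM22 are shared with OR56B1.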

How the results depend on the processing

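No paired analysis was possible because each condition has 1 library. Over all alternatives, the median ratio of the ISGs kept its sign and ranged from -0.43 to -0.27 in U251, from -0.10 to -0.03 in U87 and from -0.51 to -0.39 between the Controls. The number of ISGs beyond 2-fold depended more on the settings. With a pseudocount of 1 it was 2 in U251 (IFITM1, IFITM2) and 0 in U87, and with a minimum mean of 5 FPKM it was 3 in U251. Chosen after seeing the data, a minimum of 10 reads in a library compared gave 0 in U87, a minimum mean of 1 FPKM in the libraries compared gave 0 in U87 and 4 in U251, and leaving out genes that share over 10% of their exon bases gave 3 in U251 and 1 in U87. Of 140 alternative values for single genes, 129 moved by less than 0.5 of the width of their counting interval and 11 moved further. The sign changed for 1, that of ISG15 in U251, which was 0.05 with 75th percentile scaling, and for none beyond 2-fold. The 129 include all alternatives of BST2 and IFITM1 in U87, whose intervals have no lower end, so no shift of theirs could count as further. With pseudocounts of 0.01 and 1, the U87 ratio was -5.34 and -0.48 for BST2. For IFITM1 it was -4.99 and -0.39. Depth limits BST2, IFITM1, RSAD2 and XAF1 in U87, which had at most 8 reads there.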
